A study of Mus musculus with 8 samples.

Results

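The genes described here are 8 genes of cholesterol synthesis and its control, Hmgcs1, Sqle, Idi1, Mvd, Fdft1, Lss, Insig1 and Dhcr7, all known targets of the transcription factor SREBP2. They were listed by symbol as known targets, but with earlier results of these data known. All 8 were found among the 23337 gene names of 1 table of normalized counts. Although the set was proposed as genes of synthesis and uptake, none of the 8 takes up cholesterol, and genes of uptake and transport are described separately below. The cells were mouse embryonic stem (ES) cells, which are pluripotent cells taken from blastocysts, here carrying GFP at the Rosa26 locus. Labels gave their strain as 129S1 and their genotype as wild type, and the medium was DMEM with LIF, a cytokine that keeps mouse ES cells undifferentiated. The methods of the study also name C57BL6 as a background of cultured ES clones without saying which line was sequenced, so that the strain rests on the labels. Polyadenylated RNA was sequenced from 4 independent clones, numbered 6, 20, 30 and 36, each at passage 6 (P6) and again at passage 16 (P16), which gave 8 libraries with n = 4 per passage and 2 libraries per clone. The study asked whether expansion in vitro, which lengthens the telomeres of these cells, changes gene expression. No library was a repeat culture of the same clone at the same passage, so that culture-to-culture variation within a clone could not be measured.

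Animal cells build cholesterol from acetyl-CoA through the mevalonate pathway, which also supplies isoprenoids. When sterols in the endoplasmic reticulum run low, SREBP2 is carried by SCAP to the Golgi, cut by proteases and released to the nucleus, where it raises transcription of nearly all enzymes of the pathway. INSIG proteins hold SCAP back when sterols are plentiful, and since Insig1 is itself a target of SREBP2, the circuit contains negative feedback.

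Normalized counts are reads per gene divided by a size factor for each library, and whole reads could be recovered from them. Library totals ran from 21394069 to 34295561 reads at P6 and from 27572995 to 31752466 at P16. Rows of the table were not fully in register between libraries. In the P6 library of clone 6 only 2 lines broke the sorted order of the file, whereas the other 7 libraries had between 130 and 220 such lines, nearly all within groups of names in which 1 name continues another with a digit. Those groups held 5080 names (21.8%). None of the 8 genes was in such a group (0 of 8), and none was out of order with the rows next to it. Outside such groups the names alone set the order, so that this check could not have shown a shift. On the log2 scale the nearest value in a next row lay between 0.08 (Fdft1) and 6.85 (Sqle) from the median of the gene. Where that distance was small, as also for Lss (0.22) and Hmgcs1 (0.23), a shift could not be seen from the values. On a log2 scale the spread of the 8 genes over libraries ran from 0.34 to 1.14, against a median of 0.54 for tested names outside those groups and 1.28 for names within them. The ES cell markers outside such groups were abundant in every library, among them Pou5f1, which encodes OCT4 (between 23589 and 29184 normalized counts), and Nanog (between 6636 and 9071).

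Promoter sequences of 6 of the 8 genes could be matched in RefSeq (GRCm38.p6). They are shown as background, and whether letters upstream of the starts relate to levels in these libraries was not tested. Each window ran from 250 bases before to 50 bases after a start and was searched on both strands for TCACCCCAC and its looser form TCACNCCAC (both written for the sterol regulatory element that SREBP proteins bind), for TCACGTGA (an E-box form), for CCAAT (bound by NF-Y) and for GGGCGG (bound by Sp1). Any TCACCCCAC match is also a TCACNCCAC match. Stretches upstream of 4 starts follow, trimmed so that they touch no annotated exon, each from 5′ to 3′ on the strand of the gene, with capitals marking TCACCCCAC, CCAAT or GGGCGG in either orientation.
Hmgcs1 (chr13:119690151-119690350, plus strand, positions -200 to -1 from the start): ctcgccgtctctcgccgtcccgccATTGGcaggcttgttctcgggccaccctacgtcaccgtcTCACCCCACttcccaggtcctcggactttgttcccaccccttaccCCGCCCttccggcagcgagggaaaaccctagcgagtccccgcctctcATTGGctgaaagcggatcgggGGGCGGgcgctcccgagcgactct
Insig1 (chr5:28071182-28071307, plus strand, positions -230 to -105): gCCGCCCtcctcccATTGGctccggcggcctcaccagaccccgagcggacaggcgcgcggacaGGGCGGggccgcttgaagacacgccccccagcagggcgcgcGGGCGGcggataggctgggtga
Lss (chr10:76531515-76531585, plus strand, positions -90 to -20): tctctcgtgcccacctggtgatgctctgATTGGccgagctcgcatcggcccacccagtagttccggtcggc
Mvd (chr8:122443423-122443512, minus strand, positions -90 to -1): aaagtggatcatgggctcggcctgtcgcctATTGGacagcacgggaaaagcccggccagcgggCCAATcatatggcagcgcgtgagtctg

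Among the 6 genes, the TCACCCCAC letters were found in the window of Hmgcs1 alone, starting at position -137 (chr13:119690214-119690222, plus strand), and 0.614% of 27025 genes with a promoter in the table held them. For TCACNCCAC the only match among the 6 was the same one, against 1.44% of all genes. TCACGTGA was found in 0 of 6 windows, against 1.12% of all genes. In all these shares a gene counted when any of its starts had a match. CCAAT was present for 6 of 6 genes, for Dhcr7 only at a start downstream of its first (first match chr7:143830129-143830133), and GGGCGG for 6 of 6. These letters were also held by 41.1% and 38.2% of all genes in a window of this length. Other enzymes of cholesterol synthesis held them nearly as often, CCAAT in 10 of 11 with a matched promoter and GGGCGG in 10 of 11. These letters were therefore not particular to the genes described here. Those matches are letters in a window and were not measured as bound sites.

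Hmgcs1 encodes the cytosolic HMG-CoA synthase, which acts near the start of the mevalonate pathway. Its gene lies on chromosome 13 (positions 119690379 to 119708260, plus strand, GRCm38). It had the highest level of the 8, also per kilobase of exon, with a mean of 3066 normalized counts per kilobase and a range from 2308 to 4033. At P6, clones 6, 20, 30 and 36 had 14042.5, 8843, 8037 and 12084 normalized counts of Hmgcs1, and at P16 they had 8721, 13139, 8051 and 12484.5. High values were those of clones 6 and 36 at P6 and of clones 20 and 36 at P16, so that each passage held 2 high and 2 low libraries. Mean Hmgcs1 was 10752 ± 2806 at P6 and 10599 ± 2584 at P16 (SD, n = 4 each).

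Mvd (chromosome 8, 122433601 to 122443422, minus strand) and Idi1 (chromosome 13, 8885501 to 8892451, plus strand) act further along the pathway. The former decarboxylates mevalonate diphosphate to the isoprenoid unit and the latter converts that unit to its isomer. For Mvd the 4 clones, in the same order, had 1474, 1338, 1121 and 1443 normalized counts at P6 and 1238, 1606, 1169 and 1564 at P16. For Idi1 they had 5456, 3790.3, 3791 and 4741 at P6 and 4056, 5101, 3379 and 4831 at P16. Again the values of both passages overlapped, and the lowest library was clone 30 at P6 for Mvd and clone 30 at P16 for Idi1. Means were 1344 ± 159.7 and 1394 ± 222 for Mvd and 4445 ± 809.5 and 4342 ± 780.1 for Idi1 at P6 and P16 (SD, n = 4 each).

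Fdft1, Sqle and Lss make squalene, oxidize it and close it into lanosterol, the first sterol of the pathway. Fdft1 (chromosome 14, 63145150 to 63179578, minus strand) had 4737, 3301, 3409 and 4083 normalized counts in clones 6, 20, 30 and 36 at P6 and 3798, 4431, 3412 and 4386 at P16. Sqle (chromosome 15, 59315077 to 59331192, plus strand) had 4488, 4115, 4111 and 4247 at P6 and 3723, 4719.65, 3932 and 4612 at P16. The range of Sqle was the narrowest of the 8, its highest library being 1.27 times its lowest. Lss (chromosome 10, 76531588 to 76557138, plus strand) had 2342, 2004, 1756 and 2448 at P6 and 1845, 2416, 1617 and 2327 at P16, and per kilobase of exon it had the lowest level of the 8 (mean 449, range 347 to 525). At P6 and P16, means were 3882 ± 666 and 4007 ± 490.0 for Fdft1, 4240.4 ± 177 and 4247 ± 493 for Sqle, and 2138 ± 317 and 2052 ± 383 for Lss (SD, n = 4 each). Exons of Fdft1 share 774 bases (20.9% of its exon length) with Ctsb on the opposite strand, a gene with a mean of 3505 normalized counts. The library kit keeps the strand, but whether counting used it is not given in the sources used here, so that the part of Ctsb in the Fdft1 values was not tested.

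Dhcr7 (chromosome 7, 143823145 to 143848410, plus strand) performs the last reduction to cholesterol, and Insig1 (chromosome 5, 28071363 to 28078662, plus strand) holds SCAP and SREBP2 in the endoplasmic reticulum. Dhcr7 had 2134, 1361, 1604 and 1947 normalized counts in the 4 clones at P6 and 1990.2, 2198, 1445 and 1903 at P16. Insig1 had 5642, 2561, 3174 and 5485 at P6 and 3736, 5297, 3335 and 4837 at P16. The range of Insig1 was the widest of the 8, its highest library being 2.20 times its lowest, and its low libraries were those of clones 20 and 30 at P6 and of clones 6 and 30 at P16. Means at P6 and P16 were 1762 ± 346 and 1884 ± 318 for Dhcr7 and 4216 ± 1578 and 4301 ± 919 for Insig1 (SD, n = 4 each). Per kilobase of exon the order of mean levels was Hmgcs1, Insig1, Sqle, Idi1, Fdft1, Mvd, Dhcr7 and Lss. Every pair of neighbours in that order overlapped in range over the 8 libraries, apart from Hmgcs1 and Insig1, whose lowest and highest libraries were 2308 and 2092 normalized counts per kilobase.

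**Figure D1:**
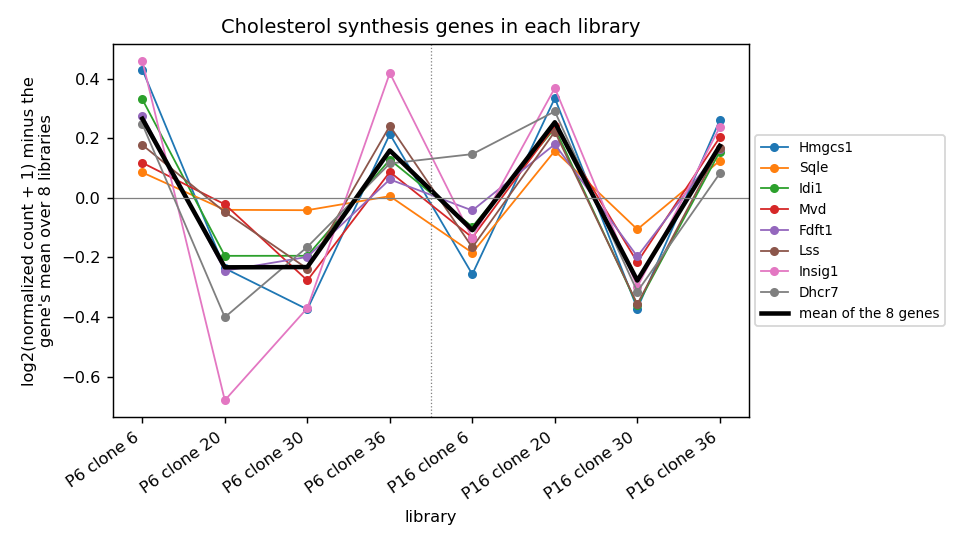
Each line is 1 of the 8 genes and the black line is their mean, plotted for 8 libraries as log2(normalized count + 1) minus the mean of that gene over the libraries. All 8 genes lie above their own mean in clones 6 and 36 at P6 and in clones 20 and 36 at P16, and the mean of the 8 ranges from -0.28 (P16, clone 30) to 0.27 (P6, clone 6).

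The 8 genes were high or low together from library to library. Each gene was expressed as log2(normalized count + 1) minus its own mean over the 8 libraries, and the mean of the 8 genes was taken in each library. At P6 this mean was 0.27, -0.23, -0.23 and 0.16 in clones 6, 20, 30 and 36, and at P16 it was -0.11, 0.25, -0.28 and 0.17. In 4 libraries, clones 6 and 36 at P6 and clones 20 and 36 at P16, 8 of 8 genes lay above their own means. In clones 20 and 30 at P6 and clone 30 at P16, 0 of 8 did, and in clone 6 at P16 Dhcr7 alone did (1 of 8). Over the 28 pairs of genes, Pearson r across the 8 libraries had a median of 0.85 (range 0.50 to 0.97) and Spearman rho a median of 0.80. Over all pairs of the 12283 tested names outside the displaced groups the median r was close to 0 (-0.0006), and r reached 0.9 in 0.554% of them, against 9 of 28 pairs (32.1%) here. The 8 libraries come from 4 clones seen at both passages and share normalization, and these correlations are given as descriptions. The 8 genes were also chosen with earlier results of these data known.

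Not all members took part equally. Against the mean of the other 7 genes, Hmgcs1 (r = 0.98), Idi1 (0.98) and Fdft1 (0.97) were the closest, and Dhcr7 (0.84) and Sqle (0.77) the least close. The lowest of the 28 correlations was that of Sqle with Dhcr7 (r = 0.50). The size of the movement also differed. The SD over libraries on the log2 scale was 0.43 for Insig1, 0.34 for Hmgcs1 and 0.12 for Sqle, where the median was 0.11 over the 4878 names that averaged 1000 or more. Insig1 stood at the 97.2 percentile of those names and Sqle at the 53.5 percentile.

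The comparison of P16 with P6 addressed whether expansion altered these genes, and no difference was detected. Differences of P16 minus P6 on the log2 scale lay between -0.07 for Lss (SE 0.16) and 0.10 for Dhcr7 (SE 0.17), with 4 genes higher and 4 lower. Insig1 had the largest standard error (0.09, SE 0.29) and Sqle the smallest (-0.0043, SE 0.085). In limma, fitted across the 14791 names that averaged 10 or more, 0 of the 8 genes passed an adjusted p of 0.05 in either direction, and their lowest adjusted p was 0.955. Of all names tested, 0.00676% passed. At an unadjusted p of 0.05 the counts were again 0 of 8, where 3.50% of all names passed. Two-sided exact permutation tests of the 8 genes, 4 libraries against 4, gave p between 0.63 for Dhcr7 and 1 for Sqle, where 0.0286 is the smallest p this unpaired test allows. Because the same 4 clones are in both passages, the test was repeated with passages exchanged within each clone, and this exact permutation test gave p between 0.63 and 1, where 0.125 is the smallest it can give and no gene could have passed 0.05. The median difference was 0.02 for the 8 genes and -0.0037 for all names. Passage accounted for 0.22% of the variance of the mean of the 8 genes (median of all names 8.35%). Standard errors between 0.085 and 0.29 leave changes of that size undetectable with 4 libraries per passage. Changes of several standard errors could also have been missed after adjustment over all names.

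**Figure D2:**
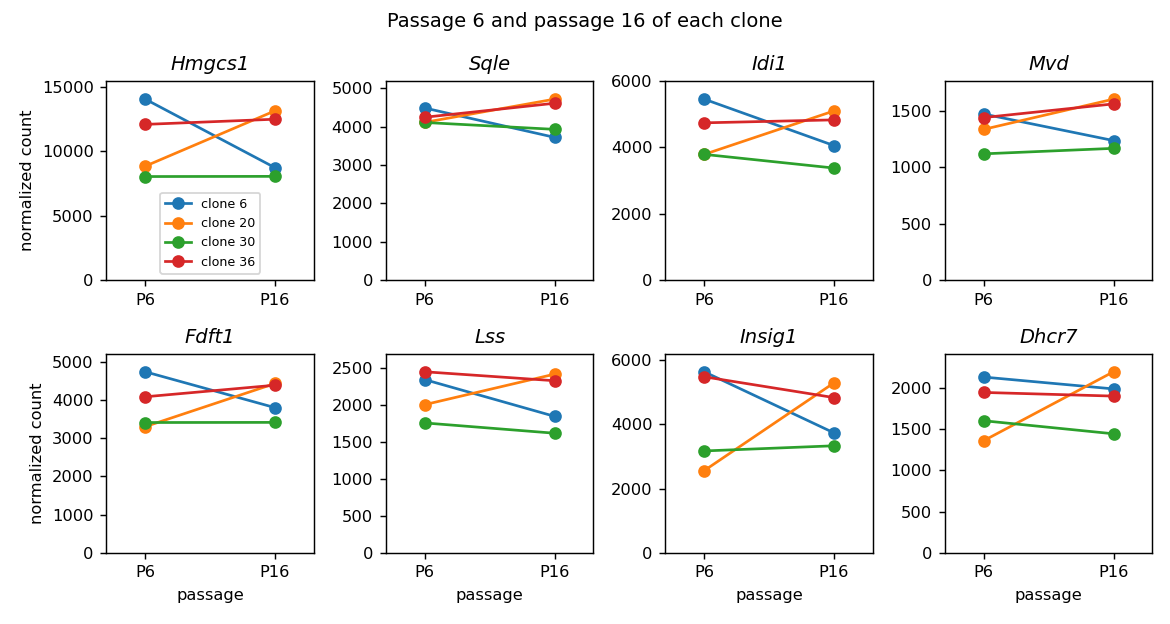
Normalized counts of each gene at P6 and P16 are joined for each of the 4 clones, on axes that start at 0. For all 8 genes the line of clone 6 runs down and that of clone 20 runs up, with means of -0.37 and 0.49 on the log2 scale, while the lines of clones 30 and 36 are closer to level (-0.05 and 0.02).

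Similar averages at P6 and P16 hid opposite movements of single clones. In clone 20 all 8 genes were higher at P16 than at P6, by 0.20 (Sqle) to 1.05 (Insig1) on the log2 scale, with a mean of 0.49. In clone 6 all 8 were lower at P16, from -0.10 (Dhcr7) to -0.69 (Hmgcs1), with a mean of -0.37. For Insig1 the count at P16 was 2.07 times that at P6 in clone 20 and 0.66 times in clone 6. In clone 30 there were 4 genes higher and 4 lower (mean -0.05), and in clone 36 there were 5 higher and 3 lower (mean 0.02). With 1 library per clone and passage, the difference between clones in this respect could not be tested. Pairing of both libraries of clone 6 rests on the label, since over 12283 names their deviations from the passage means were correlated at r = 0.096, below the r of 0.28 between clone 6 at P6 and clone 36 at P16.

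A comparison between clones addressed whether the genes follow clone identity. In limma with passage as a term, 0 of the 8 genes passed an adjusted p of 0.05 in the moderated F test between clones, where 0.135% of all names did. Their lowest adjusted p was 0.488, for Lss. At an unadjusted p of 0.05 there were again 0 of 8, against 10.7% of all names. That count depended on single libraries. It was 3 of 8 without the P16 library of clone 6 (14.1% of all names), 3 of 8 without that of clone 20 (13.7%), 2 of 8 without the P6 library of clone 6 (16.0%) and 2 of 8 without that of clone 20 (11.0%), while the lowest adjusted p of the 8 genes over these fits was 0.239. The median F was 1.53 for the 8 genes and 1.59 for all names. The share of the variance of the mean of the 8 genes within passages that lay between clones was 51.2%, against a median of 63.5% for all names. With 2 libraries per clone, such a share is well above 0 even without a clone effect. It is therefore given only as a description beside that median. That share rested on single libraries. It was 11.7% without clone 30 and 29.7% without the P16 library of clone 30, and it was 83.2% without the P6 library of clone 20, 83.1% without its P16 library and 81.8% without both.

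**Figure D3:**
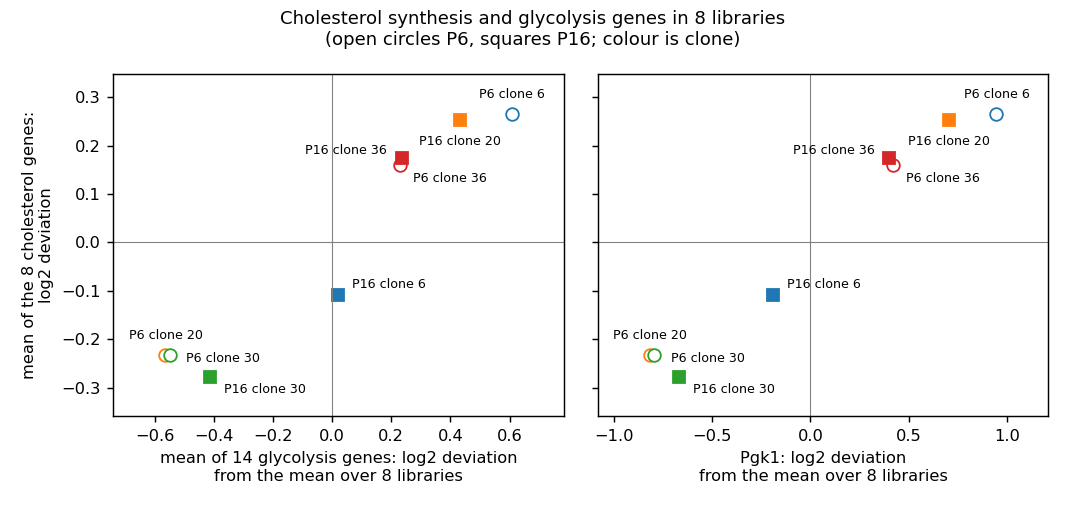
The mean of the 8 cholesterol genes in each library is plotted against the mean of 14 glycolysis genes (left) and against Pgk1 (right), both as log2 deviations from the mean over 8 libraries, with open circles for P6, squares for P16 and a colour for each clone. Libraries high on 1 axis are high on the other (r = 0.96 left and 0.98 right), and clone 6 at P16 lies between the 4 high and the 3 low libraries.

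Levels of the 8 genes went with those of glycolytic enzymes. Pgk1, the first enzyme of glycolysis that yields ATP, had 36474, 10748, 10918 and 25346 normalized counts in clones 6, 20, 30 and 36 at P6 and 16564, 30841, 11909.7 and 24976 at P16. Ldha, which turns pyruvate into lactate, had 33148, 11621, 11527 and 23212 at P6 and 17818, 29631, 12027 and 23685 at P16. High libraries of both enzymes were the same 4 as those of the cholesterol genes. Over the 8 libraries the mean of the 8 genes correlated with Pgk1 at r = 0.98 (rho 0.90) and with Ldha at r = 0.98 (rho 0.90). When the 12275 tested names outside the displaced groups were ordered by their r with the mean of the 8 genes, Pgk1 ranked 4 and Ldha 11. Over the same libraries r was 0.96 (rho 0.93) with the mean of 14 genes of glycolysis, and it was 0.96 (rho 1) without the 2 libraries farthest from the median of glycolysis. The r over 8 libraries mainly sets 4 high libraries against 4 lower ones. As deviations from the passage means it was 0.965.

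The median SD over libraries on the log2 scale was 0.45 for the 14 glycolysis genes and 0.24 for the 8 cholesterol genes, and the ranges overlapped, since Gapdh (0.13), Pgam1 (0.16) and Eno1 (0.23) varied little. The mean of the 8 genes differed by 0.50 on the log2 scale for each unit of the glycolysis mean. Of the 8 genes, 5 had an r of at least 0.9 with the glycolysis mean (Hmgcs1 0.92, Idi1 0.94, Fdft1 0.98, Insig1 0.95 and Dhcr7 0.93), a threshold that 1.73% of the 12269 names outside glycolysis and the displaced groups reached. Sqle was the least close (r = 0.63). Between P6 and P16, Pgk1 went to 2.87 and Ldha to 2.55 times the P6 count in clone 20, and to 0.45 and 0.54 times in clone 6, in the direction of the cholesterol genes in both clones. Library size moved with both groups of genes. The 4 libraries with low cholesterol genes had at least 29140582 reads and the 4 with high levels at most 29061381, and r with the logarithm of total reads was -0.74 for the mean of the 8 genes and -0.76 for glycolysis. The part of library size in these results was not tested.

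**Figure D4:**
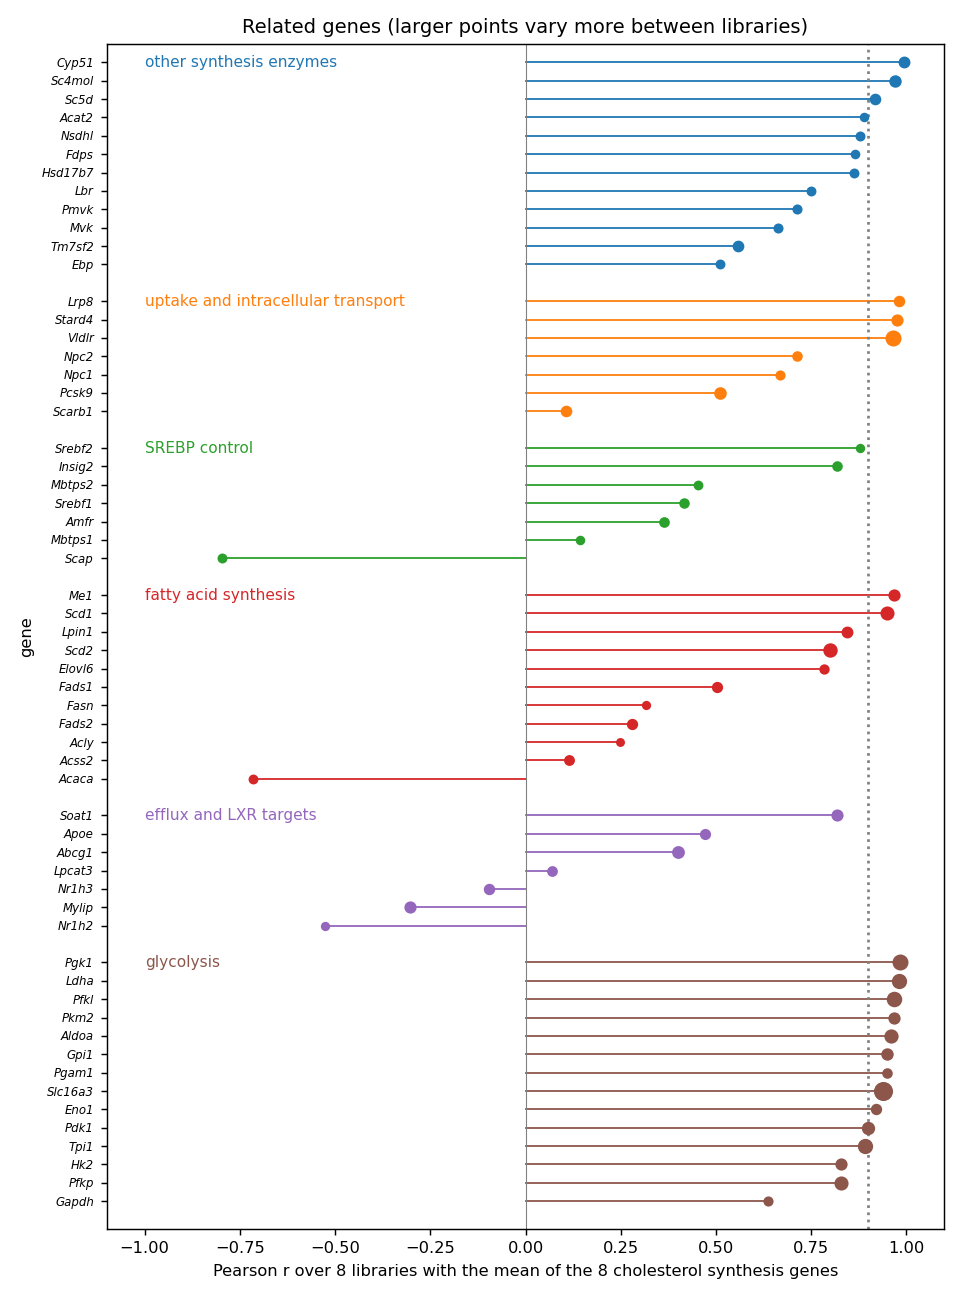
Each point is the Pearson r, over 8 libraries, of 1 gene with the mean of the 8 cholesterol synthesis genes, in 6 lists of related genes, with larger points for genes that vary more and a dotted line at 0.9. Most glycolysis genes lie beyond the line, as do Cyp51, Sc4mol, Sc5d, Lrp8, Stard4, Vldlr, Me1 and Scd1, whereas no gene of SREBP control or efflux does.

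Other genes of sterol metabolism followed in part. With r of at least 0.9 as the threshold, which 252 of 12275 names (2.05%) reached, 3 of 12 other synthesis enzymes did so, and their median r was 0.86. Cyp51, which removes a methyl group from lanosterol, had 4281, 3009, 2948 and 4059 normalized counts at P6 and 3129, 4292, 2805 and 4201 at P16 in clones 6, 20, 30 and 36 (r = 0.99). It was high in the same 4 libraries as the 8 genes. The others were Sc4mol, also called Msmo1 (0.97), and Sc5d (0.92), which act after Cyp51. Lbr, the most abundant of the list in counts, ran from 6028 to 7872 (r = 0.75), and Fdps, which joins isoprenoid units, from 4166 to 5059 (r = 0.87). None of the 12 was called between passages or between clones (lowest adjusted p in limma 0.947 and 0.477).

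Of 7 genes for uptake and intracellular transport, 3 reached 0.9 (median r 0.71). These were Lrp8 (0.98) and Vldlr (0.96), both lipoprotein receptors, and Stard4 (0.98), a cytosolic sterol carrier. Stard4 had 1672, 1126, 1079.7 and 1555 normalized counts at P6 and 1185, 1806, 1069.8 and 1443 at P16 in clones 6, 20, 30 and 36. Npc2, which moves cholesterol out of lysosomes and was the most abundant of the list in counts, ran from 2857 to 4086 (r = 0.71). Vldlr ranged from 104 to 373 normalized counts, 3.57 times between its lowest and highest libraries.

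Genes that control SREBP proteins moved little. Of 7 such genes outside the displaced groups, 0 reached 0.9 and the median r was 0.42. Srebf2, which encodes SREBP2 itself, had 9050.3, 8559, 7882 and 8857 normalized counts at P6 and 8573, 9409, 8252 and 8898 at P16, so that its highest library was 1.19 times its lowest (r = 0.88). Scap ran against the cholesterol genes (r = -0.80). Among 11 genes of fatty acid synthesis, which are chiefly targets of the related SREBP1, 2 reached 0.9 and the median r was 0.50. These were Scd1 (0.95), a desaturase, and Me1 (0.97), a source of NADPH. Acly and Fasn, the most abundant in counts, did not (r = 0.25 and 0.32), and the highest library of Fasn was 1.14 times its lowest. Of 7 genes of efflux and LXR signalling 0 reached 0.9 (median r 0.07), and of the 14 glycolysis genes 9 did (median r 0.94). None of these genes was called between passages or between clones by limma, and the median log2 difference of P16 minus P6 was 0.06 for the other synthesis enzymes, 0.02 for uptake and transport, 0.03 for SREBP control, 0.06 for fatty acid synthesis, -0.02 for efflux and 0.10 for glycolysis, against -0.0037 for all names.

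The 10 names with the highest r with the mean of the 8 genes, members left out, were Ankrd37, Cyp51, Bnip3l, Pgk1, Col20a1, Higd1a, P4ha1, Rhoq, Pgbd1 and Lrp8, with r from 0.995 down to 0.98 over the 8 libraries. Ankrd37 had 353, 60.4, 55.8 and 243 normalized counts in clones 6, 20, 30 and 36 at P6 and 107, 341, 60.0 and 231 at P16. Bnip3l, which encodes a receptor for removal of mitochondria, went from 3202 to 5140.5 normalized counts, and P4ha1, a prolyl hydroxylase of collagen, from 750.5 to 3534. At the other end stood Isyna1 (r = -0.993), which makes inositol phosphate, Lcmt2 (-0.992), Ccne1 (-0.991), which encodes cyclin E1, Vmn2r-ps129 (-0.991) and Hdgfrp2 (-0.987). Ccne1 had 5636, 8274, 8885 and 6055 normalized counts at P6 and 7796, 5835, 8728 and 6271 at P16, high where the cholesterol genes were low.

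Markers of cells that can arise in or accompany an ES culture were examined beside these results. The summed level of 6 primitive endoderm markers, Gata4 and Gata6 among them, was 3985, 3192, 2348 and 7704 normalized counts in clones 6, 20, 30 and 36 at P6 and 2619.9, 6357, 1757 and 5402 at P16, and on the log2 scale it correlated with the mean of the 8 genes at r = 0.85. None of the 6 was at 0. Their median r with the mean of the 8 genes was 0.84 (range 0.75 to 0.91), and 1 of them, Gata4, reached an r of 0.9 (0.91). For 8 ES cell markers the sum lay between 93321 and 102135 at P6 and between 99629 and 102329 at P16, with 0 of 8 genes at 0.9 (median r 0.09). Single ES cell markers ran both ways, Pou5f1 against the 8 genes (r = -0.84) and Tdgf1 (0.79) and Dppa5a (0.76) with them. Fibroblast markers summed to between 3746 and 5781 at P6 and between 4388 and 5810.2 at P16, with 0 of 6 at 0.9 (median r -0.19), and Lum, left out of that r for its low mean, ran from 0 to 7.74. Trophoblast markers had a median r of -0.60, with 1 of 4 at 0.9 (Eomes 0.93) and sums from 2069 to 3113 at P6 and from 2414 to 3814 at P16. Whether a share of endoderm-like cells had a part in the levels of the 8 genes was not tested, and in bulk RNA more cells of a type cannot be told apart from more RNA per cell.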

How the data were processed

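The authors aligned 50-base single-end reads to GRCm38 with TopHat2 (version 2.0.10) and Bowtie (version 1.0.0), counted reads per gene with HTSeq (version 0.5.3p9) and compared passages with DESeq2. The deposited table is a signal per gene, counts divided by a size factor for each library, from which whole reads were recovered for 100% of values in each library (tolerance 0.01). Samples were grouped by passage and clone from their labels. The 8 genes, the related lists and the markers were chosen with earlier results of these data known. Named genes are the 8, Pgk1, Ldha, Srebf2, the 10 names with the highest and 5 with the lowest r, and abundant examples or those past the r threshold in each list. Some genes of these lists are not reported here. Examples from the marker lists and those not among the most abundant were chosen after their values were seen.

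The main test was limma (version 3.58.1, R 4.3.3, eBayes with trend) on log2(value + 1), where 1 is the pseudocount, over names averaging 10 or more, with Benjamini-Hochberg adjustment, two-sided, without a clone term for passages. This scale understates changes of low genes. Count tests on recovered reads used edgeR (version 4.0.16) and DESeq2 (version 1.42.0). The exact test within clones was added after seeing the data. The fits for passage without a clone term and for clone with a passage term were tested on simulated counts in limma, edgeR and DESeq2. Fits for passage with clone as a replicate block were not. Libraries with the same clone number come from the same line according to the labels. Deviations from the passage means over 12283 names correlated between both libraries of a clone at r = 0.27 for clone 20, 0.70 for clone 30 and 0.43 for clone 36, but at 0.096 for clone 6. As each clone gave 1 library per passage, p-values of the unpaired passage tests rest on the spread between single libraries of different clones. That spread does not separate clone from culture. In fits with clone and passage terms, and in the exact test within clones, the spread used is how far changes between passages differed between clones. No pair of libraries was a repeat (chi-square per degree of freedom at least 7.67). Positions and exon lengths are from GENCODE M21 (GRCm38). Python 3.11.15, numpy 2.4.6, pandas 2.3.3 and scipy 1.17.1 were used.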

Additional observations from a re-analysis of the deposited data

Results flagged for a closer look

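The mean of the 8 cholesterol synthesis genes moved in opposite directions between passages in 2 clones. From P6 to P16 it changed by -0.37 on the log2 scale in clone 6, where 8 of 8 genes were lower, and by 0.49 in clone 20, where 8 of 8 genes were higher. These values were singled out because every gene went one way in 1 clone and the opposite way in the other. The difference was not tested, since each clone has 1 library per passage. As the 8 genes vary together, they are not 8 separate observations. Pairing of both libraries of clone 6 rests on the label (r = 0.096 between their deviations from the passage means). Total reads went from 21394069 to 31752466 in clone 6 and from 31634237 to 29061381 in clone 20, and the part of library size was not tested. Among 26 groups of 4 libraries examined for a sample far from the others, 0 had one, where chance alone gives about 1.3.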

How the results depend on the processing

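For the 8 genes, 0 were called between passages under all 24 alternatives run (lowest adjusted p 0.792) and 0 between clones under all 23 (lowest 0.205), though at an unadjusted p of 0.05 between 0 and 3 were, also 3 without both libraries of clone 6 or of clone 20 and 1 in DESeq2 or outside the displaced groups. Their log2 differences between passages stayed between -0.23 and 0.31. With clone as a replicate block, limma called 0 of 14791 names between passages (884 at an unadjusted p of 0.05) and DESeq2 98, against 1 name without the block in limma (518 unadjusted) and 46 in DESeq2, and the paired fits called 0 of the 8 genes. Outside the displaced groups limma called 0 names between passages (436 unadjusted) and 62 between clones, where all rows gave 20 and DESeq2 1120. Leaving out libraries or clones moved these counts between 1 and 26 for passages, the highest without clone 30, and between 0 and 165 for clones, 0 without clone 20 (1843 unadjusted) and 165 without the P16 library of clone 6. Causes were not tested.

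The correlation of the 8 genes with glycolysis was 0.942 to 0.983 over the fits that left out a library or a clone, 0.983 being without clone 6, and it was 0.984 with Pgk1 alone. Over the 4 differences within clones, too few for a relation of their own, it was 0.989, and the median r between members was 0.937. That median lay between 0.820 and 0.904 when libraries or clones were left out. The share of variance between clones ran from 11.7% to 83.2%, where a clone left with 1 library counted wholly as between clones. With 4 clones and 1 library for each clone and passage, the unpaired tests could not detect differences between passages smaller than the spread between libraries of a passage.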
